A study of Mus musculus with 4 samples.

Results

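The collagen genes were taken as all genes whose symbol is Col, digits, a and digits, which gave 44 genes of the 32286 features measured. All 44 had at least 1 unique molecular identifier (UMI, a tag that counts each captured RNA molecule once) over the 4 mice, among 22748 features with a UMI. They were read in single cells of the distal jejunum of adult male mice, 18.5 h after clamping and reperfusion of the superior mesenteric artery (ischemia/reperfusion, I/R). Both groups carried floxed Foxc1 and Foxc2 alleles (Foxc1fl/fl;Foxc2fl/fl) and both had I/R surgery. The 2 Control mice had no Cre, and the 2 EC-Foxc-DKO mice also had Cdh5-CreERT2, a tamoxifen-dependent Cre driven by an endothelial promoter, so that deletion was directed to endothelial cells. The genotype contrast asks whether endothelial loss of both FOXC transcription factors moved collagen transcripts in the cells that carry them after injury, and no uninjured mice are in these data.

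Collagens are triple helices of 3 α chains, each chain with its own gene. Types I, III and V form the striated fibrils of connective tissue and type VI a beaded microfibril, while type IV forms the sheet of the basement membrane on which endothelium, epithelium, muscle and glia rest, with types XV and XVIII at its outer face. Fibril-associated collagens (FACITs) such as types XII, XIV and XVI sit on the surface of fibrils, and types XIII and XXIII span the cell membrane. In the gut, fibroblasts lay down most of the fibrillar collagen and vessel cells build type IV.

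Of 22679 barcodes, 5615 (24.8%) had under 10% of their UMIs on mitochondrial genes and were kept (1446 and 348 of Control, 2742 and 1079 of EC-Foxc-DKO). Their median depth was 14740, 6486, 4254.5 and 19871 UMIs. Control replicate 2 stood apart, with a median mitochondrial share of 54.0% over all barcodes against 14.98% to 25.8% in the other 3. The targeted genes gave few UMIs. Blood endothelial cell (BEC)-like cells held 1 and 5 UMIs of Foxc1 in Control against 1 and 0 in EC-Foxc-DKO, none of Foxc2, and 0 and 0 of Cre against 3 and 2. Libraries shared 51 barcodes, of which 2 were kept in both libraries.

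Clusters were made without the collagen genes and named from marker genes, so a class could not be drawn by its collagens. Every series of 4 values here gives Control replicate 1, Control replicate 2, EC-Foxc-DKO replicate 1 and then EC-Foxc-DKO replicate 2. There were 2, 29, 41 and 1 stromal-like cells. Mural-like cells (smooth muscle and pericytes) numbered 12, 7, 25 and 2, BEC-like cells 31, 29, 87 and 24, lymphatic endothelial cell (LEC)-like cells 5, 10, 3 and 0, and glia-like cells 17, 19, 39 and 17. Mesothelial-like cells were 3 in Control replicate 2 and 6 in EC-Foxc-DKO replicate 1. Epithelial-like cells numbered 918, 80, 620 and 757. Every marker of the stromal, mural, BEC, LEC and glia lists had a UMI in its class. Levels are UMIs of a gene per 1000000 UMIs of that mouse and class (CPM), a level per RNA and not per cell. The 3′ reads give 1 tag per molecule, so the level is not divided by transcript length.

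Of the 44 genes, 41 had a UMI in a kept cell. Of these, 29 had 20 UMIs or more, and 12 had 1 to 19 (Col4a3, Col4a6, Col6a4, Col6a6, Col8a2, Col9a1, Col9a2, Col17a1, Col19a1, Col22a1, Col25a1 and Col26a1). The cartilage collagens Col2a1 and Col10a1, with Col24a1, had none. Among the 29, stromal-like cells held the most UMIs of 12 genes, glia-like cells of 8, BEC-like cells of 4, epithelial-like cells of 4 and LEC-like cells of 1. These are counts and not levels, and epithelial-like cells held 69208598 UMIs of all genes against 510326 in stromal-like cells. None of the 4 epithelial genes had its highest mean CPM there. Col7a1, Col9a3 and Col20a1 had it in glia-like cells, from 1.35%, 4.17% and 40.8% of their UMIs, and Col11a2 in neutrophil-like cells, from 1 UMI. For 14 of the 29, a single class held at least 70% of the UMIs. Fibrillar collagens made up 55.1% of the 19162 collagen UMIs of kept cells, type IV 18.3% and type VI 10.6%.

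**Figure D1:**
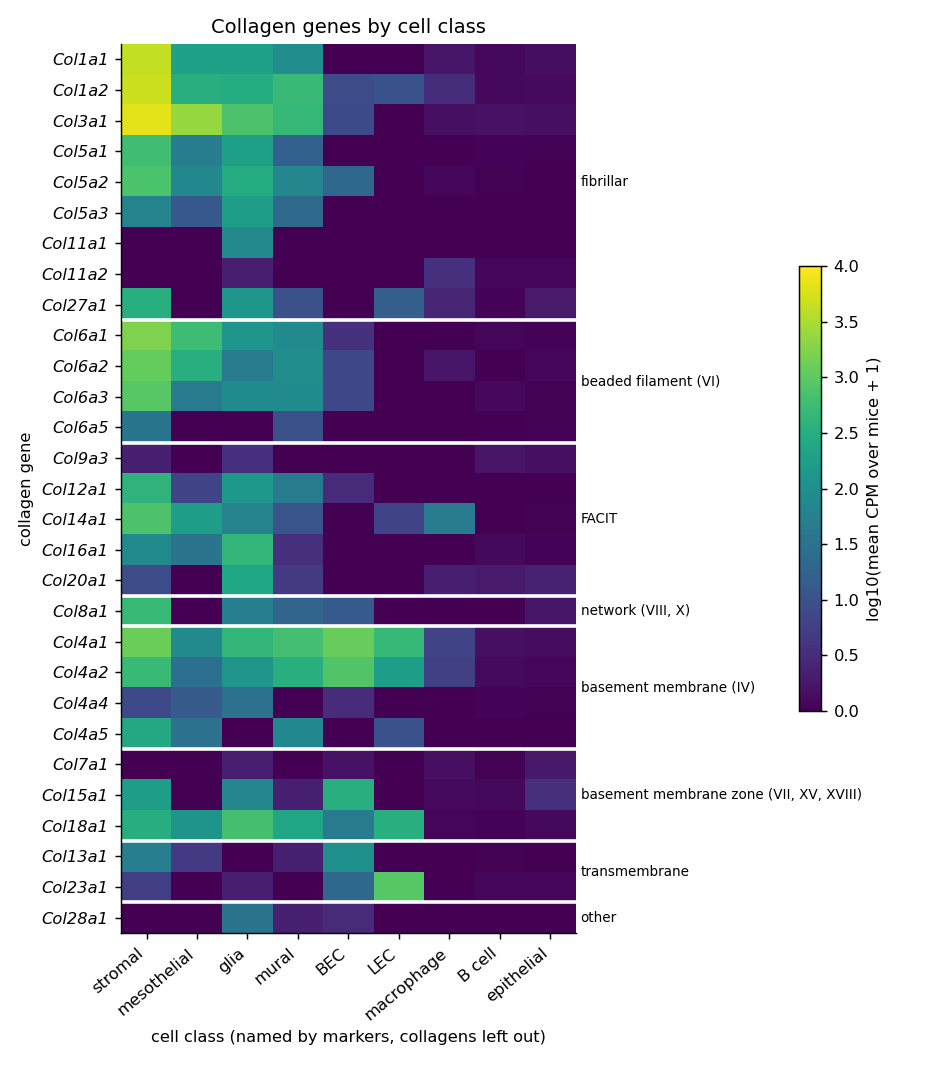
Mean level over mice, as log10(CPM + 1) in colour, of the 29 collagen genes with 20 or more UMIs (rows, grouped by kind of collagen) in 9 cell classes (columns). Stromal-like cells carry most fibrillar and type VI genes, BEC-like cells Col4a2, Col15a1 and Col13a1, LEC-like cells Col23a1, and glia-like cells Col16a1, Col18a1 and Col11a1, while Col4a1 is high in both stromal-like and BEC-like cells.

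Stromal-like cells carried by far the most collagen. Their summed level of all 44 genes was 17555, 25737, 20940.3 and 38162 CPM, a mean of 25599 ± 9023 CPM (SD, n = 4), and they held 61.4% of the collagen UMIs of all kept cells. Glia-like cells came next, with 4271, 5453, 4133 and 4890.2 CPM (4687 ± 608 CPM (SD, n = 4)). Mural-like cells had 3005, 3770.5, 2631 and 2110.4 CPM and BEC-like cells 2998, 2153, 2145 and 2795 CPM, ranges that overlapped each other. The 2 mice with mesothelial-like cells had 3059.5 and 5839 CPM, which lay on either side of all 4 glial values. The 3 mice with LEC-like cells had 2478, 2103 and 1223 CPM. Epithelial-like cells had 9.13, 14.3, 12.01 and 4.77 CPM, so every stromal, mural, endothelial and glial value lay above the highest epithelial one. Classes came from clusters of the same cells, and these differences between classes are described and not tested. The first and last stromal values come from 2 cells and 1 cell and stand on 4899 and 7442 UMIs in all.

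The kinds of collagen behind the sum also differed between classes. Fibrillar collagens were 70.8% of the collagen UMIs in stromal-like cells, 67.7% in mesothelial-like, 45.6% in glia-like and 37.9% in mural-like cells. In BEC-like cells they were 1.28%. There the type IV network took 77.3% and types VII, XV and XVIII of the basement membrane zone took 15.2%. LEC-like cells differed from both, with 47.0% on transmembrane collagens and 33.0% on the type IV network.

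**Figure D2:**
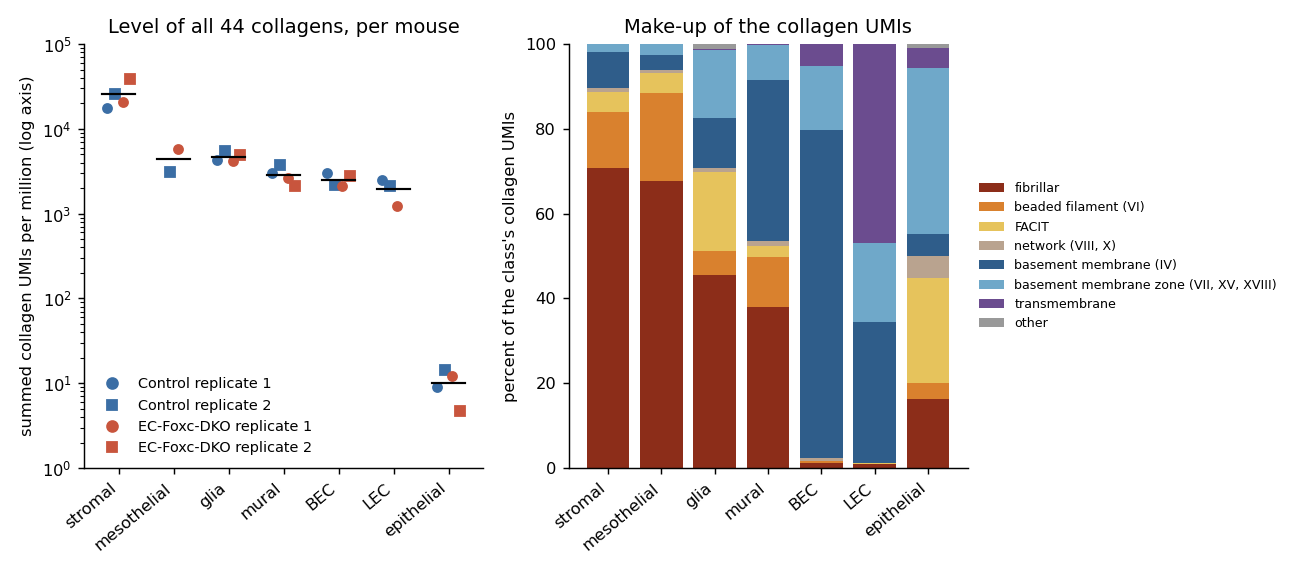
Left, summed level of the 44 collagen genes in each mouse (points, UMIs per 1000000 on a log axis) with the mean over mice (line), by cell class. Right, percent of each class's collagen UMIs by kind of collagen. Stromal-like cells lie between 17555 and 38162 CPM and epithelial-like cells below 15 CPM, and the type IV share is largest in BEC-like cells (77.3%).

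The fibrillar collagens led in stromal-like cells. Col3a1, the single chain of type III collagen, had 1429, 8851, 6914 and 9944 CPM. The type I chains followed, Col1a2 at 1429, 4363, 3304 and 9944 CPM and Col1a1 at 1633, 4005, 3028 and 8465 CPM. Each of the 3 genes had a UMI in 73 of 73 stromal-like cells, and Col3a1 in 0.842% of epithelial-like cells, which hold a median of 25781 UMIs against 6098 in stromal-like cells. After thinning each cell to 1000 UMIs the Col3a1 shares were 96.8% and 0.0434%. In every mouse Col3a1 was at or above the other fibrillar genes except in the 2 cells of Control replicate 1. The next levels were those of Col6a1, a chain of the type VI microfibril, at 3062, 1171, 1046 and 1344 CPM, and Col4a1 of the basement membrane at 1633, 1036, 1443 and 941 CPM. Col5a2 and Col5a1, whose type V fibrils nucleate type I fibrils, had 408, 737, 733 and 1075 CPM and 612, 588, 390.3 and 806 CPM.

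Between the mice with enough stromal-like cells to compare, Control replicate 2 (29 cells) was above EC-Foxc-DKO replicate 1 (41 cells) for Col3a1, Col1a2, Col1a1, Col6a1 and Col14a1, and below it for Col4a1 and Col4a2. With 1 such mouse in each group this difference has no replicate. The B-cell marker list summed to 19.9 CPM in the former and 2490 CPM in the latter, and the enterocyte list to 1265 and 11725 CPM. The part of these cells in the difference was not tested, nor was that of the mix of stromal parts described next.

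Reclustering the stromal-like cells, again without collagens, gave 2 parts. The part led by Chl1, Bmp5 and Adamdec1 held 46 cells and the part led by Slc36a2, Inmt and Ackr4 held 27 cells, all from the second Control and the first EC-Foxc-DKO mouse. Col14a1, a FACIT of mature fibrils, was at 1796 and 1637 CPM in the second part. In the same mice it was at 388 and 391 CPM in the first. Col3a1 was likewise higher in the second part, at 10759 and 12046 CPM against 5449 and 5343 CPM, and Col8a1, a short-chain network collagen, was at 498 and 373 CPM against 0 and 43.9 CPM. Col6a5, an additional type VI chain, ran the other way, with all 35 of its stromal UMIs in the first part. Both mice had these directions in all 4 genes. The parts come from the same cells, so no test was made. Within the parts, Control replicate 2 was not always above EC-Foxc-DKO replicate 1. Col3a1 was at 10759 against 12046 CPM in the second part and 5449 against 5343 CPM in the first. Col14a1 was at 1796 against 1637 CPM and 388 against 391 CPM.

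The promoters of Col3a1, Col13a1, Col15a1 and Col23a1 are shown because these genes stood high in stroma (Col3a1), blood endothelium (Col13a1 and Col15a1) or lymphatic endothelium (Col23a1). They are the 250 bases before the RefSeq start (GRCm38.p6), 5′ to 3′ on the strand of the gene, with TATAAA in capitals where it occurs on either strand. Col3a1 lies at chr1:45311288-45311537 (plus strand), Col13a1 at chr10:61979109-61979358 (minus strand), Col15a1 at chr4:47207762-47208011 (plus strand) and Col23a1 at chr11:51289670-51289919 (plus strand).
Col3a1: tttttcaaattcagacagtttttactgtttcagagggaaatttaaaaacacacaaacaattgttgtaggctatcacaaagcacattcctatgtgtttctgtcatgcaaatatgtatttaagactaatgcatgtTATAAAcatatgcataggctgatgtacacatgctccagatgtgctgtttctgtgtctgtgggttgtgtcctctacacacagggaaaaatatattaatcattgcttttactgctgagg
Col13a1: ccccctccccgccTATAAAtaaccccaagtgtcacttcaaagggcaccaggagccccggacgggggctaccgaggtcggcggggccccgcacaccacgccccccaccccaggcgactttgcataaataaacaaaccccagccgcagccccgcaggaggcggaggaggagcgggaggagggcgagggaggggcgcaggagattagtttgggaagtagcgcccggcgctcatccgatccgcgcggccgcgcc
Col15a1: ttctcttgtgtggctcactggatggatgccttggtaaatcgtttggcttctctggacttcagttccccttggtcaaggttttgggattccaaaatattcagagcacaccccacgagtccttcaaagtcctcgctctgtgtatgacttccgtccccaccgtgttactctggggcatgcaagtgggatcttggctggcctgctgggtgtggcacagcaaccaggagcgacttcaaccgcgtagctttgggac
Col23a1: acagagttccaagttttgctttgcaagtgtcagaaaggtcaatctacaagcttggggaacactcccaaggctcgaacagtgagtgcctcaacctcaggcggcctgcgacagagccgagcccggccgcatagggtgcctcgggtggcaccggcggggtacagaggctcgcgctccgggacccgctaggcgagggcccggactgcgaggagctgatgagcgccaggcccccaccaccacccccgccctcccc
TATAAA begins 117 bases before the start of Col3a1 and 237 bases before that of Col13a1, and is not in the other windows. Of 35 collagens with a promoter entry, 5 held it, against 12.4% of 32851 promoters. CCAAT was in 13 of the 35 and in 33.8% of all promoters. GTAAACA, a single word of the forkhead consensus RYMAAYA that the study searched, was in 1 of the 35 (Col6a1) and in 3.17% of all. Other words of that consensus, and the study's FOXC motif RYACACA, were not searched, so promoters without GTAAACA may hold them. Each motif was searched on both strands, and a match is a match of letters only.

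Blood vessel endothelium was a basement membrane class. Col4a1 and Col4a2, the chains of the common type IV trimer, had 1418, 1043, 1017 and 1147 CPM and 975, 678, 576 and 1003 CPM. A UMI of Col4a1 was found in 82.5% of the 171 BEC-like cells (95% Clopper-Pearson interval 75.9 to 87.8) and in 0.421% of epithelial-like cells. After thinning each cell to 1000 UMIs the shares were 57.6% and 0.0387%. Type IV was thus read in most blood endothelial cells. Col15a1, whose product links basement membrane to the fibrils outside it, had 397, 289.8, 323 and 263 CPM. Of its 611 UMIs, 48.1% lay in BEC-like, 24.5% in epithelial-like and 18.5% in stromal-like cells. Col13a1, a transmembrane collagen of adhesion sites, had 87.4, 66.9, 109 and 136 CPM, and 94.8% of its 96 UMIs lay in BEC-like cells. Col18a1, the source of endostatin, was low at 60.5, 17.8, 37.1 and 59.5 CPM. Fibrillar genes were nearly absent: a UMI of Col1a1, Col1a2 or Col3a1 was found in 3 of 171 BEC-like cells.

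These collagens were not spread evenly over the BEC-like cells. Reclustered without collagens, the cells fell into 4 parts of 72, 40, 31 and 28 cells, led by Esm1 (a gene of tip-like endothelium), by Timp4 and Gpihbp1 (the capillary anchor of lipoprotein lipase), by Kcne3, Lox and Mgp, and by Ackr1, Madcam1 and Selp (genes of venules). Col4a1 stood at 2206, 1961, 1877 and 2449 CPM in the Esm1-led part and 1727, 1397, 1671 and 1533 CPM in the Gpihbp1-led part. It was at 258, 0, 326 and 429.6 CPM in the Kcne3-led part and 532, 196, 154 and 968 CPM in the Ackr1-led part. In every mouse both of the first parts were above both of the others.

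Col15a1 and Col13a1 were highest in the Esm1-led part in every mouse. Col15a1 had 651, 855, 704 and 1278 CPM there and 209, 218, 175 and 252 CPM in the Gpihbp1-led part. Col13a1 had 163, 250.3, 242 and 639 CPM against 0, 32.7, 81.8 and 183 CPM. Col18a1 had another pattern, with 215, 42.4, 109 and 184 CPM in the Kcne3-led part and no more than 62.6 CPM in any mouse of the other 3 parts. Control replicate 2 had 1 collagen UMI of these 5 genes in its Kcne3-led cells, so its value there rests on that molecule. Between the genotypes, Col13a1 overlapped in the Esm1-led part (163 and 250.3 CPM in Control, 242 and 639 CPM in EC-Foxc-DKO). In the Gpihbp1-led part it did not (0 and 32.7 CPM against 81.8 and 183 CPM), where 0 CPM is no UMI at all. The share of all genes without overlap was not counted within a part, so this gap is not read as a difference.

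**Figure D3:**
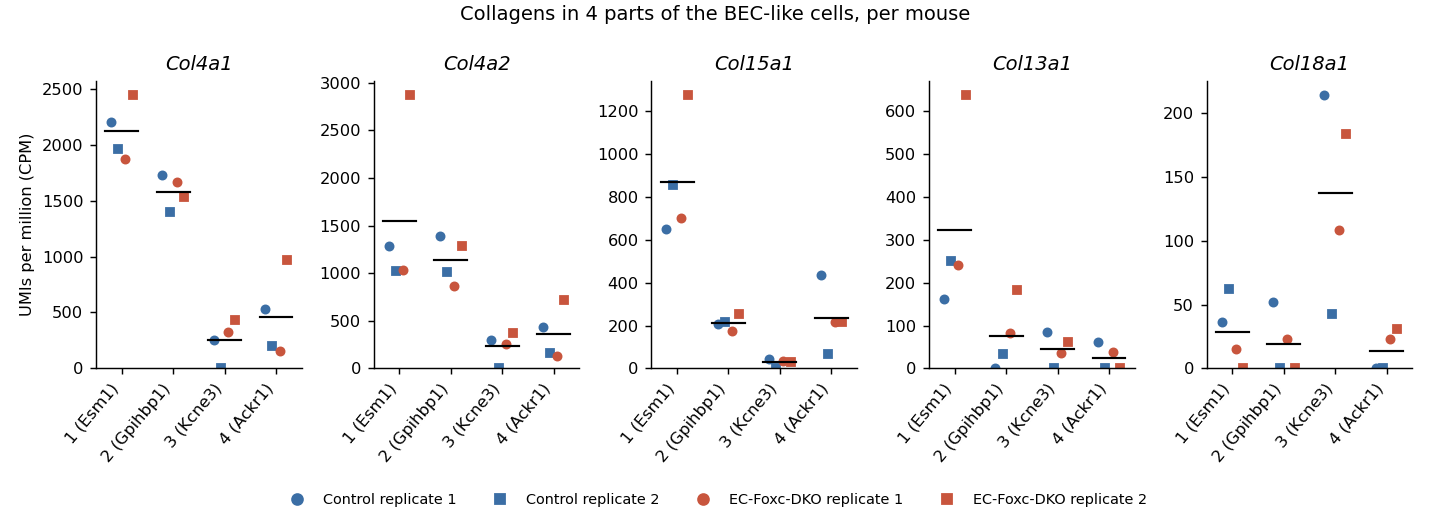
Level (CPM) of 5 collagen genes in the 4 parts of the BEC-like cells, each point 1 mouse and each line the mean of 4 mice; parts are numbered and named by a leading gene. Col4a1 and Col4a2 are high in parts 1 and 2, Col15a1 and Col13a1 highest in part 1 and Col18a1 in part 3.

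The lymphatic endothelium shared the type IV genes but had a collagen of its own. Col23a1, a transmembrane collagen that can be shed from the cell surface, had 1239, 1035 and 445 CPM in the 3 mice with LEC-like cells and a UMI in 17 of 18 cells. In BEC-like cells it had 47.1, 4.46, 23.2 and 8.50 CPM, so each LEC value was above each BEC value. LEC-like cells held 108 of its 157 UMIs (68.8%). Col4a1 was at 642, 509.8 and 278 CPM, Col18a1 at 321, 414 and 278 CPM and Col4a2 at 229, 127 and 167 CPM. Col27a1, a short fibrillar collagen and the next by mean level, rested on 1 UMI. Col15a1 and Col13a1, prominent in blood endothelium, had no UMI among the 120555 of LEC-like cells, which allows up to 24.9 CPM by counting error.

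Mural-like cells had a mixed set. Col4a1 led with 837, 828, 522 and 317 CPM and Col4a2 had 374, 529, 333 and 106 CPM. The fibrillar genes Col1a2 and Col3a1 had 374, 405, 297 and 949.7 CPM and 359, 722, 440.3 and 317 CPM. Of 46 mural-like cells, 44 had a UMI of Col1a1, Col1a2 or Col3a1, and the pericyte gene Rgs5, which is in the list that named the class, was in 88.6% of these 44. The 9 stromal markers together had 1779, 2009, 1305 and 3693 CPM in mural-like cells, against 14697 to 95539 CPM in stromal-like cells. Pdgfra and Dpt had no UMI, Dcn and Lum were in 6.82% and 2.27% of the 44 cells, and Gsn, Serping1 and Bgn were in 93.2%, 84.1% and 81.8%. Their part in the fibrillar levels was not tested. Col18a1 had 254, 335, 209.9 and 106 CPM. The Col4a5 and Col4a6 chains of type IV were also here. Col4a5 had 74.8, 52.9, 56.3 and 106 CPM, with 20 of its 55 UMIs in mural-like and 27 in stromal-like cells, and Col4a6 had 10 of its 19 UMIs in mural-like cells. The second EC-Foxc-DKO mouse had only 2 mural-like cells.

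Enteric glia-like cells had a UMI of 28 of the 44 genes, as many as mural-like cells had, while the far more numerous epithelial-like cells had one of 31. Col3a1 led with 505, 1153, 679 and 766 CPM, followed by Col18a1 with 662, 672, 646 and 675 CPM, the value that varied least between mice (663 ± 13.0 CPM (SD, n = 4)). Its 301 UMIs allow a wider spread than this by counting error alone, so the close values do not show a steady gene. Col4a1 had 409, 471, 306 and 583 CPM. Col16a1, a FACIT of fibrils and basement membrane borders, had 614, 311, 402 and 429 CPM, and 73.5% of its 264 UMIs lay in glia. Col1a2 and Col1a1 had 168, 471, 263 and 307 CPM and 108, 180.4, 249 and 245 CPM.

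Of the 92 glia-like cells, 80 had a UMI of Col1a1, Col1a2 or Col3a1. Among these 80, S100b and Sox10 were each found in 78.8%, and among the 12 without such a UMI in 83.3% and 58.3%. Both genes are in the list that named the class, so their presence does not show where the fibrillar UMIs came from. Of the 9 stromal markers, Dcn, Lum, Pdgfra and Dpt had no UMI in glia-like cells, while Gsn, Sfrp1, Serping1 and Bgn were in 97.5%, 81.2%, 60% and 50% of the 80 and Mgp in 1.25%. The whole list summed to 3513, 3538, 3076 and 3020.0 CPM in glia-like cells. Other foreign markers differed between the mice. Enterocyte markers summed to 3862, 782, 19774 and 1180 CPM, macrophage markers to 553, 3308, 464 and 1441 CPM and B-cell markers to 84.2, 2416, 1354 and 30.7 CPM. The macrophage and B-cell sums were highest in Control replicate 2, as were Col3a1 and Col1a2, and the part of these cells in the glial levels was not tested.

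Several collagens of low level were also read in glia. Col11a1, a fibrillar chain best known from cartilage, had 108, 40.1, 81.3 and 76.6 CPM, and all 35 of its UMIs lay in 21 glia-like cells. Col20a1, a FACIT, had 144, 341, 172 and 245 CPM, with 40.8% of its 240 UMIs in glia-like and 46.7% in epithelial-like cells. Col5a3, the third type V chain, had 205, 140.3, 148 and 199 CPM, with 48.7% of its UMIs in glia-like and 41.6% in stromal-like cells. Col12a1, a FACIT of dense tissue, had 144, 190.4, 143 and 61.3 CPM and Col27a1 36.1, 180.4, 124 and 153 CPM. The mean of both over mice was higher in stromal-like cells, a mean that includes Control replicate 1 with 2 cells and EC-Foxc-DKO replicate 2 with 1 cell. By UMIs, glia-like cells held 57.0% of Col12a1 and 43.8% of Col27a1, against 29.8% and 16.9% in stromal-like cells. All genes together had 457189 UMIs in glia-like and 510326 in stromal-like cells. Col28a1, which is known from Schwann cells of peripheral nerve, had 16 of its 20 UMIs in glia, and Col26a1 had 11 of 15. The latter counts are too small to order the mice.

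In immune cells collagen levels were low. In macrophage-like cells Col14a1 had 8.55, 124, 13.4 and 19.5 CPM, from 84 UMIs in 36 of 422 cells. Control replicate 2 alone was far above the other 3. The summed collagens of B-cell-like and T-cell-like cells stayed at or below 62.0 CPM in each mouse. Mesothelial-like cells, which line the outer wall of the gut, were at the level of glia. In their 9 cells Col3a1 had 1471 and 3211 CPM and Col6a1 397 and 728 CPM in the 2 mice that had such cells.

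The 10.1 ± 4.13 CPM (SD, n = 4) of epithelial-like cells hid 2 small clusters. The cluster with tuft markers held 66 cells (22, 3, 28 and 13 by mouse), and its Col15a1 level was 146, 114, 115 and 14.6 CPM. It held 137 of the 150 epithelial UMIs of Col15a1, in 45 of its 66 cells. The cluster with enteroendocrine markers held 77 cells (25, 5, 24 and 23 by mouse). There Col27a1 had 28.3, 69.4, 54.7 and 3.56 CPM and Col8a1 45.3, 27.7, 35.2 and 3.56 CPM, which were 30 of 33 and 28 of 32 epithelial UMIs.

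In both clusters EC-Foxc-DKO replicate 2 was the low mouse. Its Col15a1 level in tuft-like cells rested on 4 UMIs of 13 cells, against 61, 6 and 66 UMIs in the others. The other EC-Foxc-DKO mouse was at the level of the Control mice, so the groups overlapped for Col15a1, Col27a1 and Col8a1. Of the remaining collagens, Col7a1, the anchoring fibril beneath epithelium, had 1.08, 0.495, 0.890 and 0.935 CPM over all epithelial-like cells and 90.5% of its 74 UMIs there. Epithelial-like cells also held 69208598 UMIs of all genes, the most of any class. Col20a1 had 2.30, 0.495, 1.33 and 1.08 CPM, from 110 of 2375 cells.

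Chains that assemble into the same trimer were set side by side. Col4a1 and Col4a2 form a trimer of 2 Col4a1 chains and 1 Col4a2 chain. Their genes start 21 bases apart on opposite strands of chromosome 8 (GENCODE gene starts 11312826 and 11312805, GRCm38.p6), so that the first 22 bases of the annotated genes overlap. The ratio of Col4a1 to Col4a2 UMIs over all mice was 1.54 (95% exact binomial interval 1.39 to 1.70) in BEC-like cells. It was 2.04 (95% exact binomial interval 1.78 to 2.34) in stromal-like cells and 1.72 (95% exact binomial interval 1.37 to 2.17) in mural-like cells. In glia-like cells it was 3.59 (95% exact binomial interval 2.62 to 4.995), and every glial value by mouse (2.43, 5.22, 3.20 and 4.75) was above every BEC value (1.46, 1.54, 1.77 and 1.14). The intervals cover counting error only. A ratio of UMIs is not a ratio of protein chains.

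Type I chains are needed at 2 Col1a1 for 1 Col1a2, yet no class had a Col1a1 to Col1a2 ratio of UMIs above 1 with an interval clear of it. The ratio was 0.915 (95% exact binomial interval 0.858 to 0.977) in stromal-like, 0.699 (95% exact binomial interval 0.532 to 0.915) in glia-like and 0.365 (95% exact binomial interval 0.250 to 0.524) in mural-like cells. Over all mice, mural-like cells thus had the least Col1a1 per Col1a2, while by mouse their values (0.160, 0.391 and 0.500 in the first 3 mice) overlapped those of glia-like cells (0.643, 0.383, 0.945 and 0.8). Without EC-Foxc-DKO replicate 1 the mural ratio was 0.228. The Col5a1 to Col5a2 ratio was 0.646 (95% exact binomial interval 0.548 to 0.761) in stromal-like and 0.697 (95% exact binomial interval 0.521 to 0.931) in glia-like cells, while BEC-like cells had 0 Col5a1 against 19 Col5a2 UMIs.

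Type VI needs Col6a1 and Col6a2 with 1 further chain, usually Col6a3. Col6a1 to Col6a2 was 1.30 (95% exact binomial interval 1.14 to 1.47) in stromal-like cells, 0.973 (95% exact binomial interval 0.598 to 1.58) in mural-like cells and 3.56 (95% exact binomial interval 2.02 to 6.65) in glia-like cells. The glial mice did not have 1 direction, with 0 Col6a1 against 6 Col6a2 UMIs in Control replicate 1 and 15 against 4, 28 against 3 and 14 against 3 in the others. Without Control replicate 1 the glial ratio was 5.70, and leaving out EC-Foxc-DKO replicate 1 gave 2.23. Mesothelial-like cells had little Col6a3, with a Col6a1 to Col6a3 ratio of 12 (95% exact binomial interval 6.49 to 24.6) against 1.16 (95% exact binomial interval 1.02 to 1.31) in stromal-like cells. Without EC-Foxc-DKO replicate 1 the mesothelial ratio was 18.5, from 37 and 2 UMIs. Type VIII was Col8a1 alone in stromal-like cells, with 112 UMIs against 0 of Col8a2.

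**Figure D4:**
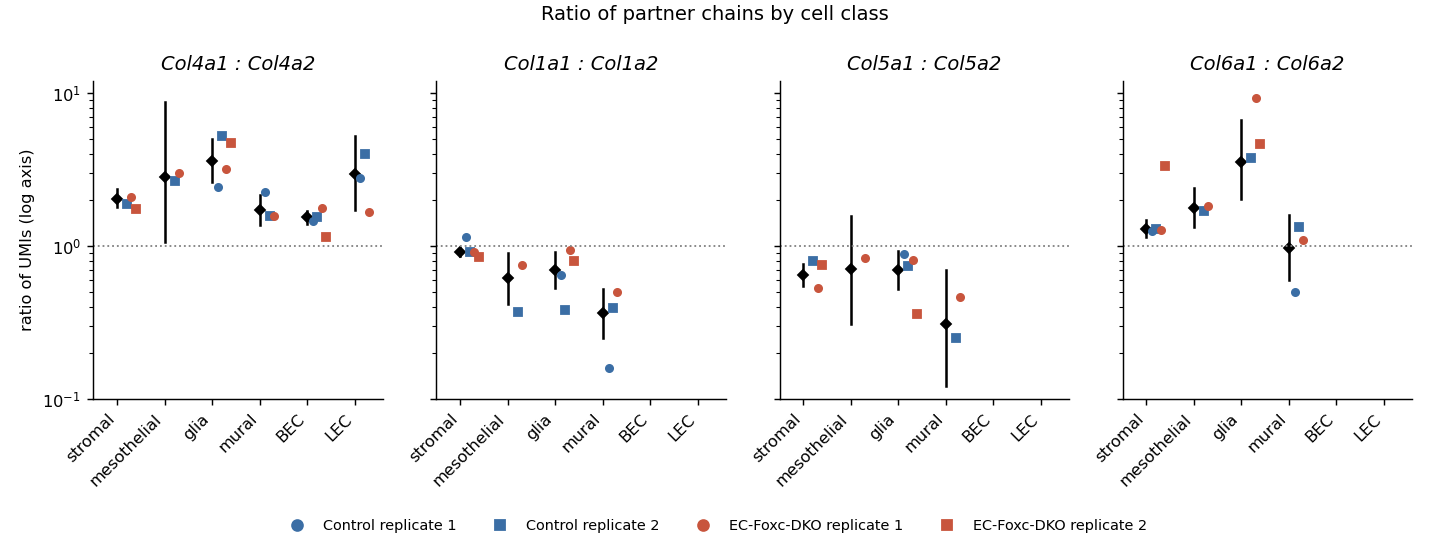
Ratio of UMIs of partner chains (log axis) by cell class for 4 pairs, with all mice pooled (black diamonds, bars the 95% exact binomial interval) and each mouse with at least 10 UMIs and both chains seen (coloured points); the dotted line marks equal counts. The Col4a1 to Col4a2 ratio is highest in glia-like cells and lowest in BEC-like cells among the classes with more than 100 UMIs, and the Col1a1 to Col1a2 ratio is lowest in mural-like cells.

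Between the genotypes, no collagen passed the test in any class that could be tested. Counts were summed per mouse and class and tested across all genes with edgeR's quasi-likelihood test, adjusted by Benjamini-Hochberg. In BEC-like cells, which with LEC-like cells are the classes that Cre targets, 5 collagens passed the filter on low counts and 0 were called, where 0 of 3487 genes were called (0%). None of the 5 had an unadjusted p under 0.05, against 97 of all genes (2.78%), and DESeq2 called 0 collagens and 2 genes in all. Mice are the replicates, so p-values rest on the spread between 2 animals a group.

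The collagen with the lowest p in BEC-like cells was Col13a1, at 87.4 and 66.9 CPM (Control) and 109 and 136 CPM (EC-Foxc-DKO). Its groups did not overlap, as was so for 30.1% of all genes tested. The log2 fold change (EC-Foxc-DKO minus Control, ± SE as for all fold changes here) was 0.63 ± 0.37 (edgeR adjusted p = 0.999). The SE is the size of the fold change over the square root of edgeR's F statistic, not the spread between mice. For the other collagens tested the groups overlapped. The log2 fold change was -0.20 ± 0.26 for Col4a1, -0.22 ± 0.33 for Col15a1, -0.10 ± 0.34 for Col4a2 and 0.28 ± 0.75 for Col18a1, with the same adjusted p. Foreign markers differed between the mice here too. In BEC-like cells macrophage markers summed to 4208, 75.8, 139 and 246 CPM and enterocyte markers to 3650, 673, 2352 and 884 CPM. B-cell markers summed to 410, 4.46, 1110 and 17.0 CPM, and the part of these cells in the BEC levels was not tested. Within the Esm1-led part of the BEC-like cells the Col13a1 groups overlapped, and within the Gpihbp1-led part they did not. The share of all genes without overlap was not counted within these parts. How far the mix of parts in each mouse enters the BEC levels was not tested either.

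In glia-like cells 14 collagens were tested and 0 were called, where 0 of 1644 genes were called (0%). None of the 14 had an unadjusted p under 0.05, against 38 of all genes (2.31%), and DESeq2 called none of the collagens. Col1a1 had the lowest p, with 108 and 180.4 CPM (Control), 249 and 245 CPM (EC-Foxc-DKO) and a difference of 0.71 ± 0.45 on the log2 scale (edgeR adjusted p = 1.00). Col12a1 and Col6a1 followed by p, at log2 fold changes of -0.56 ± 0.49 and 0.96 ± 0.85. The 2 groups did not overlap for 3 of the 14 (Col1a1 up, Col12a1 and Col5a1 down), against 26.4% of all genes, and with TMM scaling those of Col12a1 overlapped. Col18a1 differed by -0.06 ± 0.38.

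**Figure D5:**
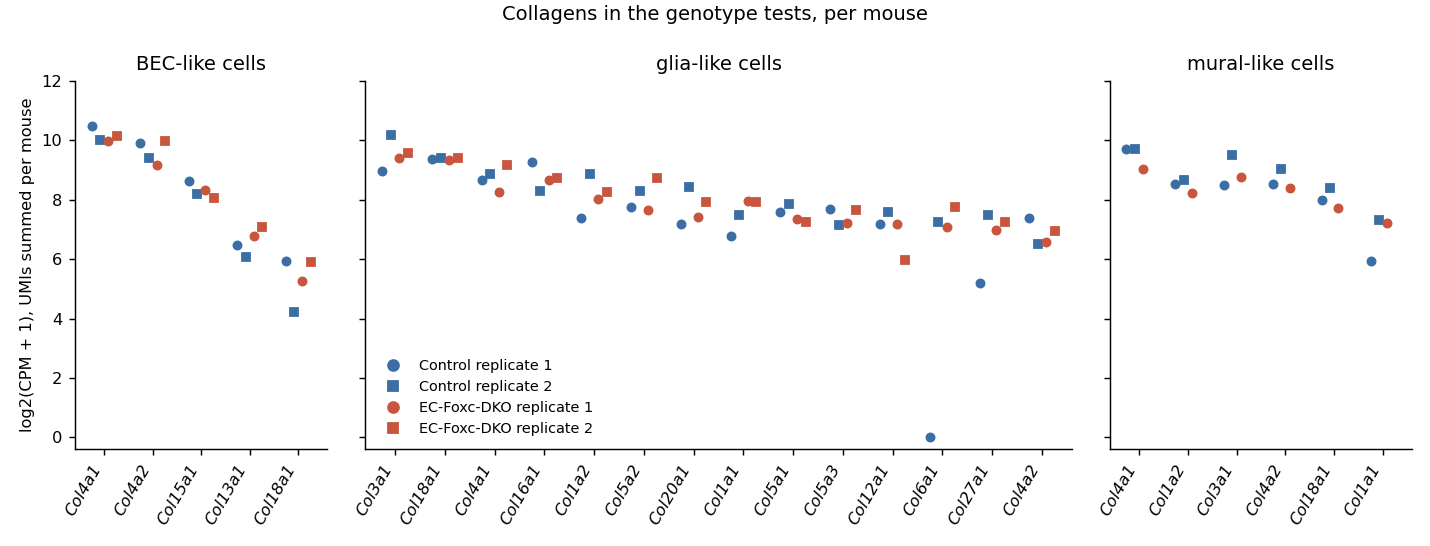
Level of each tested collagen, as log2(CPM + 1) of UMIs summed per mouse, in BEC-like, glia-like and mural-like cells; each point is 1 mouse, blue for Control and red for EC-Foxc-DKO. Points of both colours intermix for most genes. In both EC-Foxc-DKO mice Col13a1 in BEC-like and Col1a1 in glia-like cells are higher, and Col12a1 and Col5a1 in glia-like cells lower. Groups also did not overlap for 30.1% of all genes in BEC-like and 26.4% in glia-like cells. Col6a1 is at 0 in the glia-like cells of Control replicate 1.

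In mural-like cells EC-Foxc-DKO replicate 1 was the only mouse of its group with 5 cells or more. That 1 mouse was set against the 2 Control mice and was assumed to vary as they do. Of 1550 genes, 27 were called (1.74%), among them 0 of the 6 collagens tested. None of these had an unadjusted p under 0.05, against 174 of all genes (11.2%), and DESeq2 called no gene. Col4a1 was lowest by p, with 837 and 828 CPM in the Control mice against 522 CPM, a difference of -0.66 ± 0.47 on the log2 scale (edgeR adjusted p = 0.717). Col18a1 and Col4a2 followed by p, at -0.47 ± 0.50 and -0.42 ± 0.50. B-cell markers summed to 59.8 and 0 CPM in the mural-like cells of the Control mice and 921 CPM in that EC-Foxc-DKO mouse, and their part in the 27 calls was not tested.

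In epithelial-like cells 6 collagens were tested and 0 were called, where 0 of 12332 genes were called (0%). None of the 6 had an unadjusted p under 0.05, against 172 of all genes (1.39%), and DESeq2 called 7 genes and 0 collagens. None of the 6 had groups that did not overlap, against 22.3% of all genes. The 3 lowest p were those of Col8a1 (-1.21 ± 1.26), Col27a1 (-1.07 ± 1.46) and Col20a1 (-0.53 ± 0.79), each with an edgeR adjusted p of 1.00.

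Stromal-like and LEC-like cells could not be tested with at least 5 cells a mouse, since stromal-like cells left 1 mouse in each group and LEC-like cells left only the Control mice. Letting in every mouse with a cell, 0 of 17 collagens were called in stromal-like cells, where edgeR called 8 of 1852 genes (0.432%). In LEC-like cells 0 of 3 were called, where 18 of 803 genes were (2.24%). An unadjusted p under 0.05 was found for 0 of the 17 against 79 of all genes (4.27%), and for 1 of the 3, Col23a1, against 83 of all genes (10.3%). Col23a1 in LEC-like cells then differed on the log2 scale by -1.52 ± 0.61 (edgeR adjusted p = 0.273), from 1239 and 1035 CPM in 5 and 10 cells of the Control mice and 445 CPM in 3 cells of 1 EC-Foxc-DKO mouse. With the mitochondrial limit at 20% it differed by -0.90 ± 0.52 (edgeR adjusted p = 0.909).

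Genes that make, place and read collagen were taken from 5 lists of 69 genes by function. None was called up or down in any tested class by edgeR or DESeq2. In BEC-like cells 9 of 20 genes for chain modification and folding, 1 of 14 for processing and crosslinking, 10 of 16 basement membrane partners, 3 of 11 receptors and 0 of 8 cleavage enzymes passed the filter on low counts. In glia-like cells 4, 0, 6, 3 and 0 of these lists passed it, in mural-like cells 3, 1, 4, 3 and 0, and in epithelial-like cells 10, 1, 8, 5 and 1. An unadjusted edgeR p under 0.05 was found for P4ha1 in BEC-like cells and P4hb in glia-like cells alone. Over all genes tested, 2.78% in BEC-like and 2.31% in glia-like cells had one.

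P4ha1, a prolyl 4-hydroxylase subunit needed for a stable triple helix, had 40.3, 44.6, 81.3 and 178 CPM in BEC-like cells, higher in both mice of the EC-Foxc-DKO group. The log2 difference was 1.42 ± 0.50 (edgeR adjusted p = 0.999). P4hb, the partner subunit, had 144, 90.2, 306 and 215 CPM in glia-like cells, a log2 difference of 1.18 ± 0.46 (edgeR adjusted p = 1.00). Serpinh1, the chaperone of collagen folding, had 235, 321, 339 and 688 CPM in BEC-like cells and 409, 281, 517 and 843 CPM in glia-like cells, again higher in both EC-Foxc-DKO mice. Groups that did not overlap were also seen in 30.1% of all genes in BEC-like and 26.4% in glia-like cells. In this way 4 genes of the 5 lists were higher (Colgalt1, Itga1, P4ha1 and Serpinh1) of 23 tested in BEC-like cells. Lower there were 5 (Itgb1, Lamc1, Mia3, Pxdn and Sparc). In glia-like cells 3 were higher (P4hb, Ppib and Serpinh1) and 1 lower (Sparc) of 13. In epithelial-like cells 6 were higher, P4ha1 among them, and 1 lower (Itga1) of 25, where 22.3% of all genes did not overlap. For Serpinh1 the log2 fold changes were 0.82 ± 0.40 in BEC-like and 0.92 ± 0.44 in glia-like cells, which did not pass (edgeR adjusted p = 0.999 and 1.00). By list, 6 of the 9 modification and folding genes had a positive fold change in BEC-like cells (median 0.21). So did 2 of the 10 basement membrane partners (median -0.12), against 50.2% of all genes (median 0.0017). With the mitochondrial limit at 20%, 6 of the 10 partners were positive (median 0.033). In glia-like cells these counts were 3 of 4 (median 0.52) and 0 of 6 (median -0.17), against 48.9% of all genes (median -0.012). The other lists are not given by direction, and no list was tested as a set.

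Across classes these genes were ordered partly as the collagens were. Serpinh1 averaged 1439 ± 1205 CPM in stromal-like, 512 ± 241 CPM in glia-like, 396 ± 200.1 CPM in BEC-like, 338 ± 127 CPM in mural-like, 127 ± 39.1 CPM in LEC-like and 0.186 ± 0.214 CPM in epithelial-like cells. P4hb, which also serves as a general disulfide isomerase, was highest in epithelial-like cells (1059 ± 208 CPM) and at 329 ± 125 CPM in stromal-like cells. Lox, which crosslinks fibrils, had 141 ± 102 CPM in stromal-like, 70.3 ± 77.7 CPM in mural-like and 23.2 ± 13.9 CPM in BEC-like cells, and no UMI in glia-like cells, which allows up to 6.56 CPM.

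Sparc, a protein that binds type I and IV collagen, separated the 2 endothelia. It had 3166, 2942, 2219.5 and 2880.2 CPM in BEC-like cells and no UMI in LEC-like cells, which allows up to 24.9 CPM. Glia-like cells had the highest mean, 5552 ± 559.5 CPM. Of the laminin chain and linkers of the basement membrane, Lama4 was highest in LEC-like cells (413, 446 and 417 CPM), Nid1 had 584 ± 186 CPM in stromal-like and 366 ± 94.2 CPM in glia-like cells, and Hspg2 had 379 ± 41.3 CPM in BEC-like cells. Of the receptors, Ddr2, which binds fibrillar collagen, averaged 324 ± 195 CPM in stromal-like cells and 137 ± 103 CPM in mural-like cells, with 3.44 ± 4.43 CPM in BEC-like cells. Itga1, the integrin chain for type IV collagen, averaged 694 ± 80.5 CPM in BEC-like, 686 ± 223 CPM in mural-like and 566 ± 120.4 CPM in glia-like cells.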

How the data were processed

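Distal jejuna of 4 mice were dissociated with collagenase D and DNase, and each mouse gave 1 10x Genomics 3′ library. The deposited values are whole UMI counts per gene and barcode; per the labels the authors made them with Cell Ranger 4.0.0 on mm10, with Cre added to the features, while the study's methods name another version. Barcodes under 10% mitochondrial UMIs were kept, normalised to 10000 UMIs, log transformed and clustered (scanpy 1.11.5, leidenalg 0.10.2, 15 components, resolution 0.5) without the collagen genes, and named from marker lists; doublets were kept, and removed as an alternative. The study tests single cells, here the mouse is the replicate: counts were summed per mouse and class, for mice with at least 5 cells, and tested with edgeR 4.0.16 (filterByExpr, TMM, quasi-likelihood) in R 4.3.3, adjusted by Benjamini-Hochberg over all genes tested at 0.05; DESeq2 1.42.0 was an alternative. The fits were tested on simulated counts. Intervals and floors (3 counts over the class) cover counting error only.

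Named collagens are the 5 highest in each of 6 classes, the 3 lowest p in each tested class, and the partner chains; named pathway genes were fixed examples. Minor glial, tuft-like, enteroendocrine-like, mesothelial-like and macrophage members, P4ha1, and the parts of the stromal-like and BEC-like cells, were added after their values were seen, as was leaving out each mouse from the ratios of partner chains. The members and lists were chosen with earlier results of these data known. Promoters came from RefSeq (GRCm38.p6), which had 35 of the 44 genes, and the starts of Col4a1 and Col4a2 from GENCODE.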

Additional observations from a re-analysis of the deposited data

Results flagged for a closer look

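A large share of the collagen UMIs lay outside the kept cells. The 17064 barcodes with 10% or more mitochondrial UMIs held 12868 of the 32030 collagen UMIs (40.2%), a signal in barcodes outside the main comparisons, of which those under 20% enter only where that limit is named. By mouse the share was 39.1%, 45.01%, 29.9% and 66.3%. Their summed collagen level was 22.3, 488, 114 and 137 CPM, against 47.3, 1772, 340 and 46.9 CPM in the kept cells. The left-out level was thus lower in 3 mice and higher in EC-Foxc-DKO replicate 2, which kept 1 stromal-like and 2 mural-like cells. With 2 mice a group, no test for a mouse far from the others was made.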

How the results depend on the processing

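Of the collagen counts and summed levels, 157 values under the alternatives kept their side of the threshold or moved by less than the spread between mice. Leaving out 1 mouse cannot move a mean over mice by as much as that spread, so those checks of summed levels could not fail. Every main fit called 0 collagens, so the checks of counts show only whether another setting called any. In stromal-like cells the spread is wide and rests in part on mice with 2 cells and 1 cell, so the check of summed levels is weak there under every setting. With no filter on low genes, 1 collagen was called in glia-like cells, Col8a1 (log2 fold change -4.21, adjusted p = 0.0387). It had 16 UMIs in Control replicate 1, 0 in Control replicate 2, 0 and 1 in the EC-Foxc-DKO mice, so the call stands on 1 Control mouse. Over all genes, calls ranged over the alternatives from 0 to 57 in BEC-like, 0 to 50 in glia-like, 0 to 84 in epithelial-like and 0 to 28 in mural-like cells.

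Of 416 log2 fold changes under alternatives, for 31 pairs of collagen and class, 32 changed sign and 0 passed the threshold. With the highest doublet scores removed, Col15a1, Col18a1 and Col4a2 in BEC-like cells were 0.11, -0.85 and 0.070 and Col4a1 in glia-like cells 0.024. The BEC-like class of that setting also held the LEC-like cells, so it is another set of cells. There 2 of 6 collagens had an unadjusted edgeR p under 0.05, against 186 of 4015 genes (4.63%), and 0 were called. At the 20% mitochondrial limit, Col18a1 and Col4a2 in BEC-like cells were -0.13 and 0.053, and Col18a1 and Col1a2 in mural-like cells 0.082 and 0.031. With 1 cell a mouse, Col1a2 in mural-like cells was 0.18. Col7a1 in epithelial-like cells was 0.037 by DESeq2. The cause was not tested.

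With 1 mouse left out, log2 fold changes in BEC-like cells ran from -0.43 to 0.033 (Col15a1), -0.41 to 0.048 (Col4a1) and -0.50 to 0.23 (Col4a2). In glia-like cells they ran from -0.56 to 0.36 (Col16a1), -0.79 to 0.74 (Col1a2), -0.80 to 0.48 (Col20a1), -0.46 to 1.89 (Col27a1), -0.73 to 0.51 (Col3a1), -0.52 to 0.28 (Col4a1), -0.66 to 0.18 (Col4a2), -0.40 to 0.57 (Col5a2) and -0.28 to 0.21 (Col5a3). In epithelial-like cells they ran from -2.44 to 0.67 (Col15a1), -1.02 to 1.42 (Col20a1), -4.22 to 0.13 (Col27a1), -1.12 to 1.76 (Col3a1) and -0.33 to 1.02 (Col7a1). The lone mouse of a group was assumed to vary as the others.

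The replicate numbers were not taken to pair the mice: deviations of same-numbered mice correlated at 0.00736, -0.0651 and 0.240 in BEC-like, glia-like and epithelial-like cells. With a replicate block 6, 0 and 4 genes and 0 collagens were called in these classes, and Col7a1 in epithelial-like cells was 0.062. The block, leaving out a mouse, and 10 cells a mouse could not be fitted for mural-like cells. With the highest doublet scores removed, LEC-like cells fell into the BEC-like class and mural-like cells could not be fitted. Stromal-like and LEC-like cells could be fitted only at the 20% mitochondrial limit and with 1 cell a mouse, with 0 collagens called. Shares of cells with a UMI depend on depth, and fell after thinning to 1000 UMIs. Rare classes limit all comparisons: 18 LEC-like and 9 mesothelial-like cells.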
